A study of Mus musculus with 6 samples.

Results

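Expression of 10 genes of the interleukin-1 (IL-1) family was examined in mouse lip tissue. The genes were chosen by name, with earlier results of these data known. They comprise the cytokine genes Il1a, Il1b, Il18 and Il33, the receptor antagonist gene Il1rn, and the receptor genes Il1r1, Il1r2, Il1rl1, Il1rap and Il18r1. All 10 were among the 26814 gene symbols of the count matrix and all 10 were tested. The matrix holds RNA-Seq read counts for the top lip of 3 knockout (KO) mice, homozygous for the targeted allele Gtf2ird1 tm1Hrd, and 3 wild type (WT) mice, with 1 library per mouse. Gtf2ird1 encodes a DNA-binding transcription factor. All mice were adult females on the C57BL/6J background, the mutation is a germline one, and no treatment is described. The study's methods give age as a range of months and do not assign an age to each library. The lip was dissected whole, so each library mixes skin with hair follicles, muscle, vessels and immune cells.

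Total counts on genes lay between 20164081 (KO1) and 29491767 (KO2), and a count of 3 in a library corresponded to between 0.0986 and 0.154 CPM (counts scaled to an equal library size). Genes that reached 1 CPM in 3 or more libraries, 15009 in all, were compared with edgeR's quasi-likelihood test, and a gene was called where the Benjamini-Hochberg adjusted p over all tested genes was under 0.05. The targeted gene Gtf2ird1 was higher, not lower, in the libraries labelled KO (70.2 to 78.2 CPM in WT against 144 to 166 CPM in KO, log2 fold change 1.11, SE 0.13, adjusted p = 0.0018), so every direction here refers to the library labelled KO or WT, and counts per gene do not separate an intact from a targeted transcript. The tissue label was checked on basal keratinocyte markers such as Krt5 and Krt14, whose 7 listed genes summed to between 10204 and 12054 CPM per library, and on 9 skeletal muscle genes, which summed to between 4017 and 12199 CPM. Leaving out KO3 changed the number of calls most: without it 33.7% of all tested genes were called, compared with 6.47% with all 6 libraries.

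IL-1 family cytokines are alarm signals of barrier tissues. IL-1α and IL-1β bind the same receptor, IL-1R1, which needs the accessory protein IL-1RAP to signal through MyD88 to NF-kB, while IL-1Ra (encoded by Il1rn) occupies that receptor without signalling and IL-1R2 captures the ligands as a decoy. IL-18 signals through IL-18R1 and IL-33 through ST2 (encoded by Il1rl1), and IL-1β and IL-18 are made as precursors that caspase-1 cleaves. In skin, keratinocytes store IL-1α, IL-18 and IL-33, whereas IL-1β is known chiefly from activated myeloid cells.

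Of the 10 family genes, only Il1b was called, and it was higher in the libraries labelled KO, where 6.47% of all tested genes were called and 4.38% were called higher. Il1b was 4.08-fold higher, and per length it was below Il1a, Il18 and Il33 in the mean of both genotypes. Il1a, Il1rn, Il18, Il33, Il1r1, Il1r2, Il1rap and Il18r1 had positive log2 fold changes that were not called, and that of Il1rl1 was negative. The median log2 fold change of the 10 genes was 0.47, compared with -0.02 for all 15009 tested genes, and 9 of the 10 were positive, compared with 48.0% of all tested genes. The 10 genes were chosen with earlier results of these data known, so this comparison only describes them. Genotypes did not overlap for Il1b and Il18r1, which is 2 of 10, both with KO above WT. Of all tested genes, 31.5% did not overlap in either direction and 13.5% had KO above WT. The share among the 10 was thus below the first and above the second, and neither comparison was tested.

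**Figure D1:**
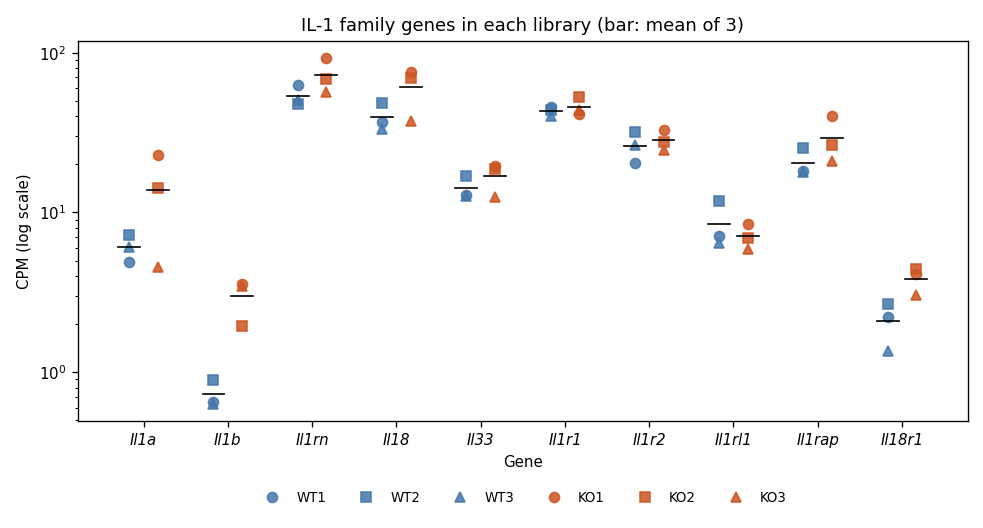
CPM (log scale) of the 10 IL-1 family genes in each of the 6 libraries, with circles, squares and triangles for mice 1, 2 and 3 of each genotype (WT blue, KO orange) and a bar for the mean of 3. The 3 KO points of Il1b lie between 1.94 and 3.58 CPM, above all WT points, whereas the KO3 triangle of Il1a lies below all 3 WT points.

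Il1a and Il1b lie next to each other on the minus strand of chromosome 2, and the start-site regions of both are printed here because Il1b was the called gene and Il1a is its nearest relative and neighbour. The third sequence is the start-site region of Il1f9, which encodes the related cytokine IL-36γ and was the other called ligand gene of the family. Each runs from 250 bases before to 50 bases after the annotated start, 5′ to 3′ on the coding strand (RefSeq, GRCm38.p6), and capitals mark GGATTA, the core sequence known to be bound by GTF2IRD1, and TATAAA, the TATA box letters.
Il1b, chr2:129371090-129371389, minus strand: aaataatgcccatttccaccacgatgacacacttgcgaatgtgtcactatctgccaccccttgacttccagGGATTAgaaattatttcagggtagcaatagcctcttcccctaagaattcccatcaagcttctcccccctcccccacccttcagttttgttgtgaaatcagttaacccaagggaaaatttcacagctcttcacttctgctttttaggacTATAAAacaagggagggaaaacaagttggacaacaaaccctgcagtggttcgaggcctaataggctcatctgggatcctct
Il1a, chr2:129309923-129310222, minus strand: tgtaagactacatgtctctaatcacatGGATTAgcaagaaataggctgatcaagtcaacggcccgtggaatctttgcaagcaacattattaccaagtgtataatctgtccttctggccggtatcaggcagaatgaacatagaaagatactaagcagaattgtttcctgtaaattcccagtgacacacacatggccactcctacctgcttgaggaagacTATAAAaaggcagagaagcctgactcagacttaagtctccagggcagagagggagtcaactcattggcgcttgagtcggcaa
Il1f9, chr2:24186226-24186525, plus strand: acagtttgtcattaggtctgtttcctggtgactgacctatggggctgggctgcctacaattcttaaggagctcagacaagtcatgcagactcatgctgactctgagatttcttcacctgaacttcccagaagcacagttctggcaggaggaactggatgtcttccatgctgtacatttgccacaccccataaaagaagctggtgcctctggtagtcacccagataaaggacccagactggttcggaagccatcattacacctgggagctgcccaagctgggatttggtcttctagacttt
GGATTA began 179 bases before the start of Il1b and 223 bases before the start of Il1a, and TATAAA began 31 and 32 bases before them. The Il1f9 window held neither word. RefSeq windows were matched for all 10 family genes, 17 windows in all, because some genes have several starts. Some windows of the same gene, as in Il1rn and Il18r1, share bases. With both strands searched, GGATTA was present in a window of 4 family genes (Il1a, Il1b, Il1r1 and Il1rl1), in 4 of the 17 windows, and in 7.06% of all 32851 windows of the same length. In Il1r1 it began 53 bases and in Il1rl1 40 bases before the start. Of these 4 genes only Il1b was called. TATAAA was present in windows of 5 family genes (Il1a, Il1b, Il1rn, Il18 and Il33), in 6 of the 17 windows, and in 13.6% of all windows. The NF-kB consensus was found in 1 of the 17 windows, a window of Il1r1, and in 8.46% of all windows. These are matches of letters only, and the words do not overlap each other in the printed windows.

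Il1b (ENSMUSG00000027398, chromosome 2, 129364570 to 129371139, minus strand) encodes the secreted cytokine IL-1β. It had 18 read counts in WT1, 21 in WT2 and 14 in WT3, compared with 70 in KO1, 59 in KO2 and 76 in KO3. Scaled to library size this was 0.653, 0.893 and 0.63 CPM in WT1, WT2 and WT3, and 3.58, 1.94 and 3.48 CPM in KO1, KO2 and KO3. All 3 KO libraries lay above all 3 WT libraries, with KO2 the lowest of the KO libraries. The log2 fold change was 2.03 (SE 0.33, adjusted p = 0.0113). No WT library reached 1 CPM, so Il1b entered the test only through the KO libraries, and a gene admitted in that way had to differ. Without the filter, Il1b was also called (adjusted p = 0.00339). The call was lost without WT1 (log2 fold change 1.95, adjusted p = 0.0758) and without WT3 (1.94, adjusted p = 0.063). The exons of Il1b overlap those of Il1bos on the opposite strand, which the matrix lists as Gm14047. The sources used here do not state whether counting used the strand. Gm14047 had 0.436, 1.15 and 0.855 CPM in the WT libraries and 1.59, 1.45 and 0.366 CPM in the KO libraries, with overlap between genotypes and no call (log2 fold change 0.50, adjusted p = 0.561).

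Il1a (ENSMUSG00000027399, chromosome 2, 129299610 to 129309972, minus strand) encodes IL-1α, which keratinocytes hold ready and release on damage. It had 4.9, 7.27 and 6.07 CPM in WT1, WT2 and WT3, and 22.8, 14.2 and 4.53 CPM in KO1, KO2 and KO3. The libraries KO1 and KO2 were above all WT libraries, but KO3 was below all of them. The log2 fold change of 1.19 (SE 0.49, adjusted p = 0.155) was not called by the quasi-likelihood test. Without KO3 it was 1.60 (adjusted p = 0.00176), in a fit where 17.5% of all tested genes were called higher. The exact test, which the study's methods name, called Il1a with all 6 libraries (adjusted p = 0.041) and called 14.9% of all tested genes. Il1a overlaps exons of Gm14023 on the opposite strand, a gene of 13 to 29 counts per library that was not tested.

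The neighbouring ligand genes thus had different orders among the KO libraries. Per length, Il1a exceeded Il1b by a ratio of 7.25, 7.87 and 9.32 in WT1, WT2 and WT3, and of 6.16, 7.06 and 1.26 in KO1, KO2 and KO3. The ranges of this ratio did not overlap between genotypes, but KO2 at 7.06 was close to WT1 at 7.25, and Il1b had few counts in WT. KO3 was by far the lowest. No test was made of the ratio.

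Il1rn (ENSMUSG00000026981, chromosome 2, 24336853 to 24351494, plus strand) encodes the natural antagonist IL-1Ra. It had 62.5, 47.6 and 50.8 CPM in WT1, WT2 and WT3, and 92.8, 68.4 and 56.9 CPM in KO1, KO2 and KO3. KO3 fell within the WT range, and the log2 fold change of 0.44 (SE 0.20, adjusted p = 0.186) was not called. The antagonist message was more abundant than both agonist messages together in every library. The ratio of Il1rn to the sum of Il1a and Il1b, per length, was 4, 2.07 and 2.7 in WT1, WT2 and WT3 and 1.25, 1.51 and 2.5 in KO1, KO2 and KO3. The libraries KO1 and KO2 had the lowest ratios, while KO3 lay between WT2 and WT3.

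Il18 (ENSMUSG00000039217, chromosome 9, 50554827 to 50581840, plus strand) encodes IL-18 and was the most abundant of the 10 messages per length. It had 37.1, 48.2 and 33.5 CPM in WT1, WT2 and WT3, and 75.8, 69.9 and 37.5 CPM in KO1, KO2 and KO3. As for Il1a, KO1 and KO2 were above all WT libraries and KO3 was not. The log2 fold change was 0.62 (SE 0.27, adjusted p = 0.166), and without KO3 it was 0.88 (adjusted p = 0.005). Il18bp, which encodes the soluble IL-18 binding protein, had 3.08 to 3.83 CPM in WT and 3.2 to 4.66 CPM in KO (log2 fold change 0.12, SE 0.22, adjusted p = 0.734), and shares exonic positions with Numa1 on the opposite strand. The ratio of Il18 to Il18bp per length overlapped between genotypes (28.8 to 37 in WT, 34.3 to 60 in KO).

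Il33 (ENSMUSG00000024810, chromosome 19, 29925114 to 29960718, plus strand) encodes a nuclear cytokine released from damaged epithelium. It had 12.8, 17 and 12.6 CPM in WT1, WT2 and WT3, and 19.5, 18.7 and 12.5 CPM in KO1, KO2 and KO3. The genotypes overlapped, and the log2 fold change was 0.26 (SE 0.22, adjusted p = 0.448). Il1rl1 (ENSMUSG00000026069, chromosome 1, 40429570 to 40465415, plus strand), which encodes the IL-33 receptor ST2, had 7.15, 11.8 and 6.48 CPM in WT1, WT2 and WT3, and 8.44, 6.87 and 5.9 CPM in KO1, KO2 and KO3. It was the only family gene with its highest value in a WT library, and its log2 fold change was -0.26 (SE 0.27, adjusted p = 0.531). That sign rested on WT2, without which the log2 fold change was 0.11. The ratio of Il1rl1 to Il33 per length was 0.233, 0.29 and 0.215 in the WT libraries and 0.181, 0.153 and 0.198 in the KO libraries. The genotypes did not overlap in this ratio (KO3 at 0.198 was nearest to WT3 at 0.215), although they did in either gene alone. No test was made of the ratio of Il1rl1 to Il33.

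The gene of the signalling receptor of both IL-1 forms had the log2 fold change nearest to 0 of the 10. Il1r1 (ENSMUSG00000026072, chromosome 1, 40225080 to 40317257, plus strand) had 45.6, 43.7 and 40 CPM in WT1, WT2 and WT3, and 41.5, 52.9 and 43.5 CPM in KO1, KO2 and KO3. The values were interleaved, with a log2 fold change of 0.09 (SE 0.14, adjusted p = 0.685), and reads may be shared with Gm38070 on the same strand. The decoy receptor gene Il1r2 (ENSMUSG00000026073, chromosome 1, 40074079 to 40125231, plus strand) had 20.5, 31.8 and 26.3 CPM in WT1, WT2 and WT3, and 32.9, 27.7 and 24.6 CPM in KO1, KO2 and KO3. It too was interleaved, with a log2 fold change of 0.12 (SE 0.20, adjusted p = 0.719) that turned to -0.04 without WT1. Decoy exceeded signalling receptor per length in every library, with ratios of 1.5 to 2.42 in WT and 1.74 to 2.64 in KO. In CPM the order was the reverse in every library, so the order depends on the annotated exon lengths used.

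Il1rap (ENSMUSG00000022514, chromosome 16, 26581704 to 26730117, plus strand) encodes the accessory chain that IL-1R1, ST2 and the IL-36 receptor share. It had 18.3, 25.5 and 17.8 CPM in WT1, WT2 and WT3, and 40.2, 26.4 and 21.1 CPM in KO1, KO2 and KO3. KO1 was clearly above the WT range, KO2 was just above WT2 and KO3 was inside the range, and the log2 fold change of 0.51 (SE 0.26, adjusted p = 0.22) was not called. Il18r1 (ENSMUSG00000026070, chromosome 1, 40465552 to 40500854, plus strand) encodes the ligand-binding chain of the IL-18 receptor. It had 2.21, 2.68 and 1.35 CPM in WT1, WT2 and WT3, and 4.09, 4.41 and 3.06 CPM in KO1, KO2 and KO3. All KO values were above all WT values. The log2 fold change was 0.89 (SE 0.29, adjusted p = 0.0952), which did not pass the threshold in the quasi-likelihood test and did pass it in the exact test (adjusted p = 0.0425) and in DESeq2 (adjusted p = 0.039). Those tests called 7.76% and 8.93% of all genes they tested higher, and each called 3 of the 10 family genes (Il1a, Il1b and Il18r1). An unadjusted p under 0.05 in the quasi-likelihood test was seen for 4 of the 10 and for 29.6% of all tested genes. The annotation of Il18r1 begins 136 bases after the end of Il1rl1 on the same strand. Their log2 fold changes differed in sign, but the quasi-likelihood test called neither, and the sign of Il1rl1 changed without WT2.

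**Figure D2:**
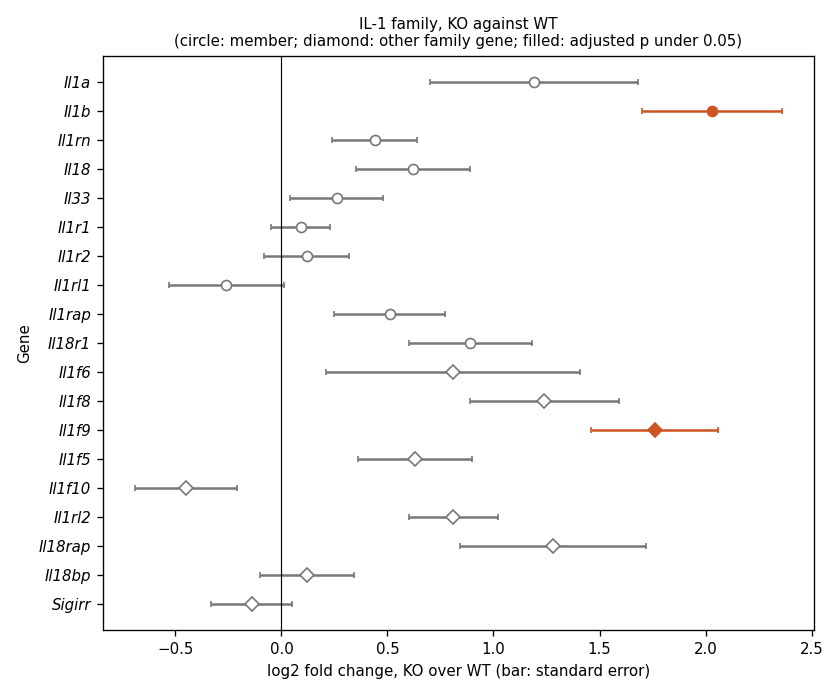
Log2 fold change, KO over WT, with its standard error for the 10 chosen genes (circles) and 9 other tested IL-1 family genes (diamonds), filled where the adjusted p was under 0.05. Il1b at 2.03 and Il1f9 at 1.76 are the filled points, and Il1rl1, Il1f10 and Sigirr lie below 0.

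The order of the messages was compared on a per-length scale, as RPKM (CPM divided by kilobases of annotated exon). In WT, Il18 was first with 38.4 ± 7.44 RPKM (SD, n = 3), followed by Il1r2 with 13.7 ± 2.96 and Il1rn with 9.69 ± 1.42, which overlapped. Il1r1 (6.77 ± 0.449), Il33 (4.9 ± 0.858) and Il1a (3.08 ± 0.6) followed without overlap between neighbours. Il1rap (1.8 ± 0.379) and Il1rl1 (1.23 ± 0.418) overlapped, as did the lowest pair, Il18r1 (0.432 ± 0.14) and Il1b (0.38 ± 0.0763). Il1b was thus last in WT. In KO the order of the first 4 was the same, with Il18 at 59.2 ± 20, Il1r2 at 14.9 ± 2.2, Il1rn at 13.1 ± 3.31 and Il1r1 at 7.23 ± 0.959 RPKM. Il1a had rank 5 with 7.01 ± 4.64 RPKM and overlapped both Il1r1 and Il33 (5.86 ± 1.34). Il1b had rank 8 with 1.57 ± 0.482 RPKM and overlapped Il1rap (2.57 ± 0.865) and Il1rl1 (1.03 ± 0.186).

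The library KO1 had the highest value for 7 of the 10 genes (Il1a, Il1b, Il1rn, Il18, Il33, Il1r2 and Il1rap), KO2 for Il1r1 and Il18r1, and WT2 for Il1rl1. KO3 was the lowest KO library for 8 of the 10 genes, where this was so for 41.8% of all tested genes. KO1 and KO2 each exceeded all WT libraries in 8 of the 10 genes and KO3 in 2, Il1b and Il18r1, while for all tested genes the shares were 38% for KO1, 34.7% for KO2 and 25.2% for KO3. Without KO3, and with the same genes tested, 6 of the 10 were called higher (Il1a, Il1b, Il1rn, Il18, Il1rap and Il18r1), their median log2 fold change was 0.64, and 17.5% of all tested genes were called higher. Without KO1 or without KO2, Il1b alone was called.

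**Figure D3:**
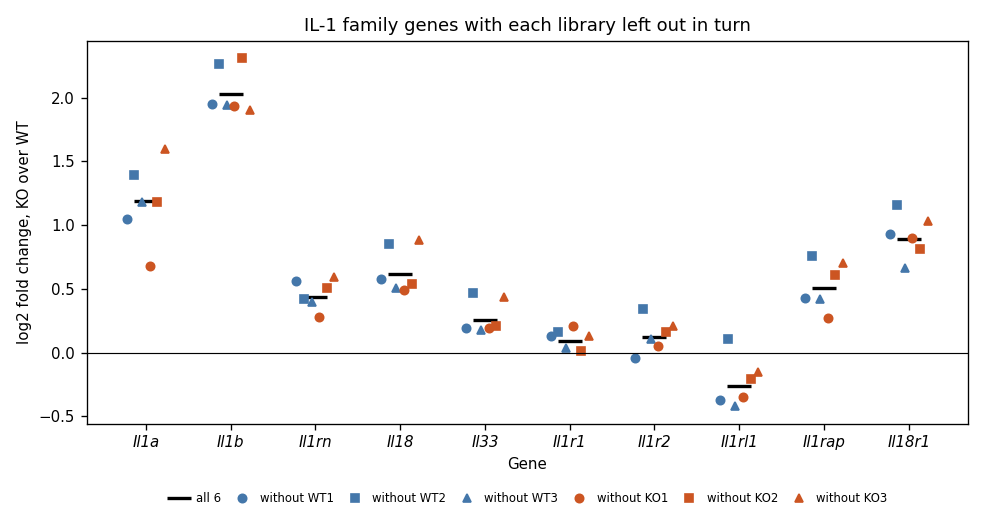
Log2 fold change, KO over WT, of the 10 genes with all 6 libraries (bar) and with each library left out in turn (symbols). Il1b lies between 1.90 and 2.31 throughout, Il1a between 0.68 without KO1 and 1.60 without KO3, and Il1r2 and Il1rl1 cross 0.

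Among the other ligand genes of the family, Il1f9 was called and the other 4 were not. Il1f9 (IL-36γ, an agonist made by keratinocytes; chromosome 2, 24186476 to 24193568) had 29.8, 33.9 and 26.3 CPM in WT1, WT2 and WT3, and 139, 109 and 56.2 CPM in KO1, KO2 and KO3. All KO libraries were above all WT libraries, and the log2 fold change was 1.76 (SE 0.30, adjusted p = 0.0147). The fold change lay between 1.51 and 2.05 with libraries left out, and the call was lost without WT1, WT2, WT3 or, where the filter was applied anew, KO2 (adjusted p up to 0.0833).

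The agonist gene Il1f8 (IL-36β) had 33.1, 35.3 and 21 CPM in WT and 106, 64.8 and 40.1 CPM in KO, without overlap (log2 fold change 1.24, adjusted p = 0.0732). Il1f6 (IL-36α) had 39.2, 18.2 and 12.9 CPM in WT and 80.2, 26.6 and 17.2 CPM in KO, with overlap (0.81, adjusted p = 0.384). Its difference rested on KO1, without which the log2 fold change was -0.03. Il1f5, which encodes the IL-36 receptor antagonist, had 198, 206 and 165 CPM in WT and 401, 304 and 176 CPM in KO (0.63, adjusted p = 0.17). Il1f10, which encodes IL-38, had 4.61, 5.48 and 7.74 CPM in WT and 5.17, 3.91 and 3.98 CPM in KO (-0.45, adjusted p = 0.251). Neither was called. The ratio of antagonist to agonist messages, Il1f5 over the sum of Il1f6, Il1f8 and Il1f9 per length, was 0.492, 0.654 and 0.77 in WT and 0.34, 0.451 and 0.453 in KO. These ranges did not overlap, and no test was made of the ratio.

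Of the other receptors and binding proteins, 0 of the 4 tested genes were called by edgeR's quasi-likelihood test, 2 had an unadjusted p under 0.05, 2 were called by the exact test and 1 by DESeq2. For all tested genes these shares were 6.47% called, 29.6% at an unadjusted p under 0.05, 14.9% by the exact test and 14.2% by DESeq2. Il1rl2, which encodes the IL-36 receptor, had 27.5, 34.9 and 25.7 CPM in WT and 60.5, 55.5 and 37.9 CPM in KO, without overlap (log2 fold change 0.81, SE 0.21, adjusted p = 0.0601). Il18rap, the signalling chain of the IL-18 receptor, had 0.472, 1.23 and 0.54 CPM in WT and 1.89, 2.4 and 1.1 CPM in KO, with KO3 below WT2 (1.28, SE 0.44, adjusted p = 0.107). Only WT2 of the WT libraries reached 1 CPM, so Il18rap passed the filter through the KO libraries. Sigirr, an inhibitory receptor of the family, had 5.7 to 6.79 CPM in WT and 5.16 to 6.72 CPM in KO (-0.14, adjusted p = 0.645). Il1rapl1 and Il1rapl2 were below the filter, with at most 0.0726 CPM in a library.

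The family genes lie in clusters in the GRCm38 annotation. On chromosome 1, Il1r2, Il1r1, Il1rl2, Il1rl1, Il18r1 and Il18rap span 478 kb (40074079 to 40551705), and their log2 fold changes in that order were 0.12, 0.09, 0.81, -0.26, 0.89 and 1.28. On chromosome 2, Il1f8, Il1f9, Il1f6, Il1f5, Il1f10 and Il1rn span 198 kb (24153161 to 24351494), with log2 fold changes of 1.24, 1.76, 0.81, 0.63, -0.45 and 0.44. Log2 fold changes within both clusters therefore differed in size, and 1 gene of these 12, Il1f9, was called. The negative values were those of Il1rl1, which was 0.11 without WT2, and Il1f10, and neither gene was called.

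Of the 22 listed genes for the cleavage and release of IL-1β and IL-18 that the matrix holds, 17 were tested and 3 were called, all higher, where 6.47% of all tested genes were called and 4.38% were called higher. Of the 17 log2 fold changes 12 were positive and 5 negative, with a median of 0.17. The lowest was that of Ctsg (cathepsin G, a protease of mast cells and neutrophils), for which the KO libraries lay below all WT libraries (-1.11, adjusted p = 0.0616), and which the exact test called lower (adjusted p = 0.0274). Ctsg passed the filter only through the WT libraries. Aim2, a cytosolic DNA sensor, had 1.23, 1.91 and 1.93 CPM in WT and 7.21, 7.2 and 3.84 CPM in KO (log2 fold change 1.85, SE 0.32, adjusted p = 0.014). Casp4, the caspase of the non-canonical inflammasome, had 2.36, 2.59 and 2.43 CPM in WT and 10.2, 7.27 and 3.48 CPM in KO (1.50, SE 0.36, adjusted p = 0.0499). P2rx7, an ATP-gated channel that triggers IL-1β release, had 23.9, 27.1 and 25.5 CPM in WT and 59.4, 65.5 and 33.8 CPM in KO (1.05, SE 0.24, adjusted p = 0.0419). In all 3 genes the genotypes did not overlap and KO3 was the KO library closest to WT. The calls of Casp4 and P2rx7 were lost when any library but KO3 was left out (adjusted p up to 0.182 and 0.166), and that of Aim2 without WT1 or WT3 and, where the filter was applied anew, without KO2 (up to 0.0775). With all libraries and other settings, Casp4 was called in 4 of 10, P2rx7 in 7 of 10 and Aim2 in 10 of 10. Casp1, which encodes the enzyme that cleaves both precursors, had 14.4, 16.1 and 9.85 CPM in WT and 27.8, 32.2 and 12.8 CPM in KO, with KO3 inside the WT range (0.85, adjusted p = 0.143). Nlrp3, the best known inflammasome sensor, was below the filter with 0.69 to 1.38 CPM. Ctsg, Casp1 and Nlrp3 were named here after their values were seen.

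All 33 listed genes of receptor signalling to NF-kB were tested and 0 were called by edgeR's quasi-likelihood test, with 26 positive log2 fold changes and a median of 0.25. An unadjusted p under 0.05 was seen for 10 of the 33, compared with 29.6% of all tested genes. The exact test called 4 of the 33 and 14.9% of all genes, DESeq2 called 7 and 14.2%, and without KO3 13 and 33.7% were called. The counts at an unadjusted p and by the exact test were thus near the shares of the whole table. The log2 fold changes ranged from -0.67 to 1.31.

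Of 31 listed genes that IL-1 is known to induce, 22 were tested and 5 were called, all higher, where 6.47% of all tested genes were called and 4.38% were called higher. Their log2 fold changes were positive in 13 and negative in 9, from -1.15 to 4.11 with a median of 0.60. The KO libraries lay above all WT libraries in 10 of the 22 genes and below them in 2. For all tested genes these shares were 13.5% above and 18.1% below. Ccl20, a chemokine for CCR6-bearing lymphocytes and dendritic cells, had 1.05, 0.468 and 0.944 CPM in WT and 6.75, 10.8 and 25.5 CPM in KO (log2 fold change 4.11, SE 0.56, adjusted p = 0.00432). Only WT1 of the WT libraries reached 1 CPM, so Ccl20 passed the filter through the KO libraries. Without the filter, the quasi-likelihood test also called Ccl20 (adjusted p = 0.000587). Ccl2, a chemokine for monocytes, had 3.56, 2.89 and 2.83 CPM in WT and 7.78, 8.65 and 10 CPM in KO (1.51, SE 0.19, adjusted p = 0.00336). In both, and unlike Il1a and Il18, KO3 was the highest library. Fgf7, a fibroblast growth factor for keratinocytes, had 9.94, 12.1 and 8.32 CPM in WT and 37, 32 and 23.3 CPM in KO (1.60, SE 0.22, adjusted p = 0.00473). Cxcl1, a neutrophil chemokine, had 0.508, 0.128 and 0.405 CPM in WT and 3.33, 1.45 and 2.33 CPM in KO (2.71, SE 0.49, adjusted p = 0.0175). Like Il1b, Cxcl1 passed the filter only through the KO libraries, and its call was lost without WT1 or WT3 (adjusted p up to 0.0717). Ptges encodes a prostaglandin E synthase, and the gene had 22.8, 25.2 and 25.5 CPM in WT and 46.4, 33.5 and 38.2 CPM in KO (0.68, SE 0.16, adjusted p = 0.044). Its call was lost when any library but KO3 was left out (adjusted p up to 0.176). The other 17 tested genes were not called, and 9 listed genes were below the filter, among them Il6, which had at most 0.17 CPM.

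**Figure D4:**
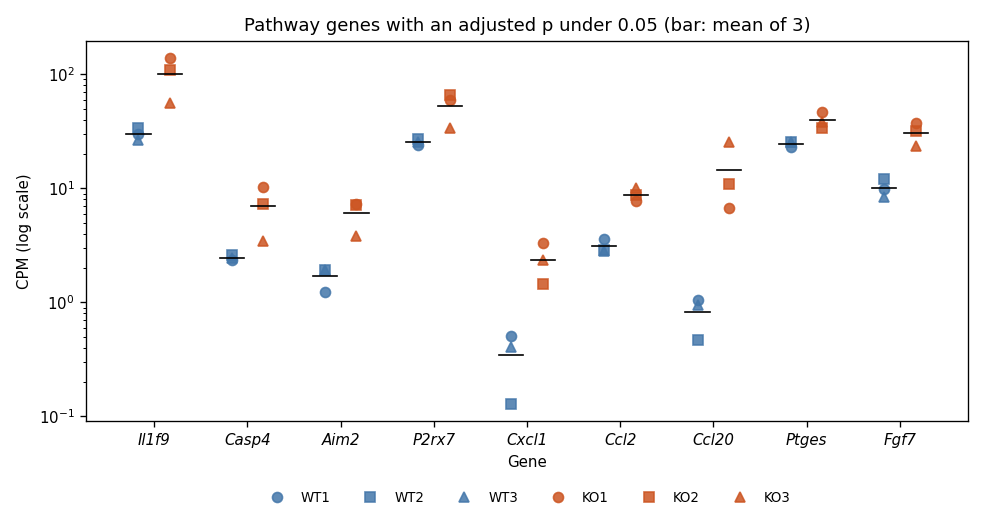
CPM (log scale) in each library of the 9 genes of the pathway lists with an adjusted p under 0.05, with symbols as for the 10 family genes and a bar for the mean of 3. In every gene the KO points lie above the WT points, and KO3 is the highest KO library for Ccl2 and Ccl20 and the lowest for Il1f9, Casp4, Aim2, P2rx7 and Fgf7.

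Markers of several cell types differed between genotypes beside these values. In whole tissue, fewer cells of a type and less RNA per cell cannot be told apart. Of 6 tested Langerhans and dendritic cell markers, 2 were called higher, Cd207 (3.16 to 4.29 CPM in WT, 12.4 to 13.3 CPM in KO) and Ciita (7.74 to 9.49 CPM in WT, 18.5 to 25.6 CPM in KO), where 4.38% of all tested genes were called higher. The other 4 were not called, 2 of the 6 log2 fold changes were negative (down to -0.40) and the median was 0.34. The 8 listed markers summed to 35.2 to 39 CPM in WT and 53.9 to 69.3 CPM in KO. Of 8 suprabasal keratinocyte markers, 1 was called higher (Ivl) by the quasi-likelihood test, 5 had an unadjusted p under 0.05, and 5 were called by the exact test, 5 by DESeq2 and 5 without KO3. For all tested genes these shares were 29.6% at an unadjusted p under 0.05, 14.9% by the exact test, 14.2% by DESeq2 and 33.7% without KO3. The suprabasal markers summed to 19653 to 24307 CPM in WT and 30594 to 47007 CPM in KO, with KO3 the lowest KO library. Neutrophil markers were low, with Mpo, Ngp, Retnlg, Camp and Ltf below the filter and Ly6g not in the matrix. Their sum was 10.8 to 32.1 CPM in WT and 12.9 to 141 CPM in KO, where the highest value was that of KO1 and came mostly from S100a8 (64.8 CPM) and S100a9 (67.1 CPM). Of the 4 tested, 0 were called by edgeR's quasi-likelihood test, its exact test or DESeq2, and 1 had an unadjusted p under 0.05.

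The counts of markers below stand beside these shares of all tested genes. By edgeR's quasi-likelihood test 4.38% were called higher and 2.09% lower, and 29.6% had an unadjusted p under 0.05. The exact test called 14.9% and DESeq2 14.2%. Macrophage and monocyte markers summed to 521 to 582 CPM in WT and 409 to 561 CPM in KO, with 0 of 12 called by edgeR's quasi-likelihood test, its exact test or DESeq2, 3 at an unadjusted p under 0.05 and 8 negative log2 fold changes. Mast cell markers, of interest because mast cells carry ST2, summed to 221 to 274 CPM in WT and 158 to 207 CPM in KO, without overlap, with 0 of 10 called by edgeR's quasi-likelihood test, 5 at an unadjusted p under 0.05, 3 called by the exact test and 1 by DESeq2. T cell markers summed to 10.2 to 15.2 CPM in WT and 13.3 to 24.4 CPM in KO, with Foxp3, which passed the filter only through the KO libraries, called higher of 7 tested. Innate lymphoid and natural killer cell markers summed to 314 to 349 CPM in WT and 265 to 459 CPM in KO, with Il7r called higher of 5 tested. Skeletal muscle markers summed to 9297 to 12199 CPM in WT and 4017 to 7851 CPM in KO. The KO libraries lay below all WT libraries in 8 of 9 muscle genes, and in 18.1% of all tested genes. Of these 9, 1 was called lower, where 2.09% of all tested genes were called lower, all 9 had an unadjusted p under 0.05, 7 were called by the exact test and 6 by DESeq2. Hair follicle markers summed to 5511 to 6793 CPM in WT and 3333 to 4617 CPM in KO, with the KO libraries below all WT libraries in 8 of 8 genes, where this was so for 18.1% of all tested genes. Of these 8, 2 were called lower, all 8 had an unadjusted p under 0.05, 5 were called by the exact test and 4 by DESeq2. Endothelial markers summed to 229 to 276 CPM in WT and 154 to 264 CPM in KO, with 8 of 8 log2 fold changes negative. Dermal fibroblast markers summed to 6467 to 8465 CPM in WT and 2806 to 6822 CPM in KO, with 7 of 8 negative. Of these 8 endothelial and 8 dermal fibroblast markers, 0 were called by edgeR's quasi-likelihood test, its exact test or DESeq2. An unadjusted p under 0.05 was seen for 2 endothelial and 0 fibroblast markers, and for 29.6% of all tested genes. Without KO3, 5 endothelial and 4 fibroblast markers were called, and 33.7% of all tested genes. No listed marker in the matrix was at 0 in all libraries. The part of these shifts in the values of Il1b, Il1f9 and the other called genes was not tested.

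Over the 6 libraries, the profile of Il1b on the log2 CPM scale was most like those of Pa2g4 (Pearson r = 0.997), BC026590 (r = 0.994) and Sin3b (r = 0.994). All 3 had log2 fold changes of 0.36 to 0.37 and were not called (adjusted p from 0.0902 to 0.119). The 6 points share their libraries and genotypes, so these correlations are descriptions of the shape of the profile and not of the size of the difference.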

How the data were processed

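Whole top lips of 3 KO and 3 WT mice gave 1 mRNA library each. The submitters' processing notes name TopHat2 2.0.8, Bowtie2 2.1.0, HTSeq and GRCm38, and the authors deposited unnormalized read counts per gene symbol. Whether counting used strand, and in which mode, is not given in the sources used here. All 6 columns were used. Replicates were separate mice. The members and gene lists were chosen with earlier results of these data known.

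Genes that reached 1 CPM in 3 or more libraries were scaled by TMM factors and compared with edgeR 4.0.16 (glmQLFit with legacy=FALSE, glmQLFTest) in R 4.3.3, with Benjamini-Hochberg adjustment over all 15009 genes, which was tested on simulated data. Depth was 20164081 to 29491767 counts, and the limit of 3 counts covers counting error only. Alternatives were edgeR's exact test, DESeq2 1.42.0, limma-voom (limma 3.58.1), the older quasi-likelihood fit, 3 other scalings, 2 other filters, a replicate block and left-out libraries. RPKM used TMM-scaled CPM and the union of exons of GENCODE M21. Promoter windows came from RefSeq. Named were all family genes, the called genes of the longer lists (at most the 4 of lowest p in each direction, and Ptges, named after its values were seen), and the 3 genes most like Il1b.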

Additional observations from a re-analysis of the deposited data

How the results depend on the processing

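Limits are the 3 mice per genotype, the low counts of Il1b (14 to 76 per library) and the weight of KO3. Il1b was called in all 10 settings other than left-out libraries (adjusted p 2.38e-06 to 0.0339) and had a log2 fold change of 1.90 to 2.31 with libraries left out, where its call was lost without WT1 and WT3. Without a KO library the usual filter removed Il1b, so fits that kept the genes tested with all 6 libraries were added after seeing the data. The exact test called 1165 genes higher and 1073 lower, and DESeq2 called 1511 and 898. Genes called lower numbered 207 with DESeq2's size factors, 204 without a filter and 204 with at least 10 counts in every library. The exact test and DESeq2 each called 3 of the 10 family genes, adding Il1a (log2 fold change 1.19 and 1.22) and Il18r1 (0.89 and 0.93). Of the pathway lists, 16 genes were called higher and 2 lower by the exact test, 19 and 1 by DESeq2, and 14 higher without a filter, against 9 and 0.

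With libraries left out, 208 (without KO2) to 2629 (without KO3) genes were called higher and 18 to 2430 lower, 0 to 6 of the 10 family genes higher, and 3 to 27 pathway genes higher and 0 to 6 lower, the upper values being those without KO3. The log2 fold changes ranged from 0.68 to 1.61 for Il1a, 0.28 to 0.59 for Il1rn, 0.49 to 0.88 for Il18, 0.27 to 0.76 for Il1rap and 0.66 to 1.16 for Il18r1, each called without KO3. They changed sign for Il1r2 (-0.04 without WT1, up to 0.34), Il1rl1 (0.11 without WT2, down to -0.42), Il1f6 (-0.03 and, with all genes kept, -0.05 without KO1, up to 1.40) and Il18bp (-0.0026 without KO1, up to 0.26). The cause was not tested.

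The labels do not say whether the replicate numbers pair the mice, and no pairing was used in the main test. Deviations of same-numbered libraries correlated at -0.192, 0.293 and 0.312, and not every library correlated best with its own number. Deviations from a mean of few libraries depend on each other, so these correlations cannot settle the pairing. With replicate number as a block, 580 genes were called higher and 217 lower, and Il1b was called (adjusted p = 0.0339).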
